A study of Mus musculus with 2 samples.

Results

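The nuclear genes of mitochondrial oxidative phosphorylation were examined in mouse blood after heat. They were taken by name alone, as every gene on the array whose name starts with Ndufa, Ndufb, Ndufc, Ndufs, Ndufv, Sdha, Sdhb, Sdhc, Sdhd, Uqcr, Cox4, Cox5, Cox6, Cox7, Cox8 or Atp5. This gave 96 of the 37074 gene names on the array, carried by 150 of 56605 probes. Of the 96 members, 81 encode subunits of complexes I to V, 11 encode assembly factors whose names share the prefixes, and 4 are other genes, namely the supercomplex factor Cox7a2l, the pseudogene Atp5c1-ps, and Atp5s and Atp5sl, which are named after complex V but are not structural subunits of it.

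Oxidative phosphorylation takes place in the inner membrane of mitochondria. Complex I takes electrons from NADH and complex II takes them from succinate, both pass them to ubiquinone, complex III passes them on to cytochrome c, and complex IV hands them to oxygen. Complexes I, III and IV pump protons as they do so, and complex V, the ATP synthase, lets the protons flow back and makes ATP. Most subunits are encoded in the nucleus and are made in nearly all nucleated cells, and several subunits of complex IV also exist as isoforms that are made in muscle, testis or lung or under low oxygen.

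The study holds 2 samples of mouse blood RNA, each measured on 1 single-colour Agilent array. The heat sample had 1 h of pretreatment at 37 °C in a water bath and 1 h at 38.5 °C, and the control sample has no temperature or time in its labels. The labels give no strain, sex, age or genotype, and do not say whether animals or drawn blood were heated. In both samples red cells were lysed and globin transcripts were removed before labelling, so these steps are common to both groups. An effect of heat cannot be told apart from one of the pretreatment or of handling, nor fewer cells of a type from less RNA per cell.

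With 1 array per group there is no replicate check on any value below and no p-value. Signals are processed signals in arbitrary units, averaged on the log2 scale over a gene's usable probes, which are those well above background on both arrays. A difference is the log2 signal of the heat sample minus that of the control sample, after each array was scaled to its 75th percentile. That percentile was 604 for the heat array and 620.5 for the control, and the scaling adds 0.039 to every difference. The brightness of a probe depends on its sequence, so signals are compared between the arrays and never between genes. Both arrays lay on 1 slide and were scanned in 1 run. Against the tissue label, all 7 monocyte markers and all 4 markers of dividing cells were detected on both arrays. Also detected were 4 of 6 neutrophil and 4 of 6 T cell markers, while Ly6g, Cxcr2, Cd3g and Cd8a were detected on neither array. For B cells 1 of 4 markers was detected, for red cells 2 of 6 and for platelets 1 of 5. The summed signals in the heat and control samples were 267667 and 265405 for the monocyte list and 45872 and 45485 for dividing cells. They were 57647 and 58442 for neutrophils, and 11522 and 9872 for platelets. For T cells they were 580 and 557, for B cells 256 and 223, and for red cells 140 and 138. Which cells gave these signals was not tested. Over all gene names 50.1% were detected on both arrays, so partial detection of a list does not show that its cells were present. Technical spread could be judged from spots and from probes. Spots of 1 probe printed at several positions differed between the arrays with an SD of 0.082 around their probe's mean (285 probes), and different probes of 1 member gene with an SD of 0.114 around the gene's mean (34 genes).

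The nuclear respiratory chain genes were detected almost throughout and were nearly alike on the heat and control arrays. On both arrays 92 of the 96 members were well above background (95.8%), against 18562 of 37074 gene names (50.1%). None of the 92 was at least 2-fold higher in the heat sample and none at least 2-fold lower, where 0.21% and 0.453% of all measured genes were. No member had a difference of 0.3 or more (1.23-fold), against 6.47% of all genes, and 2 had a difference of -0.3 or less, against 6.48%. These were Cox6c and Cox6a2, both of complex IV. The members' median difference was -0.00090, with 45 above 0 (48.9%) and 47 below, beside a median of 0.0076 and 52.2% above 0 over all genes.

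The members' differences were also narrow. They had an SD of 0.130, against 0.241 for all genes, and 66 of the 92 lay within 0.1 of 0 (71.7%), against 48.5% of all genes. Bright probes vary less: the SD was 0.156 over the 10837 genes with a probe in the brighter 50% of usable probes, which hold 88 of the members. With differences taken over these brighter probes alone, 67 of 88 members lay within 0.1 of 0 (76.1%), against 61.4% of all genes there, and 81 of 88 lay within 0.2 (92.0%), against 87.5%. In that brighter part 2.06% of all genes had a difference of 0.3 or more and 2.56% one of -0.3 or less, while 0.0277% were 2-fold higher and 0.129% were 2-fold lower.

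**Figure D1:**
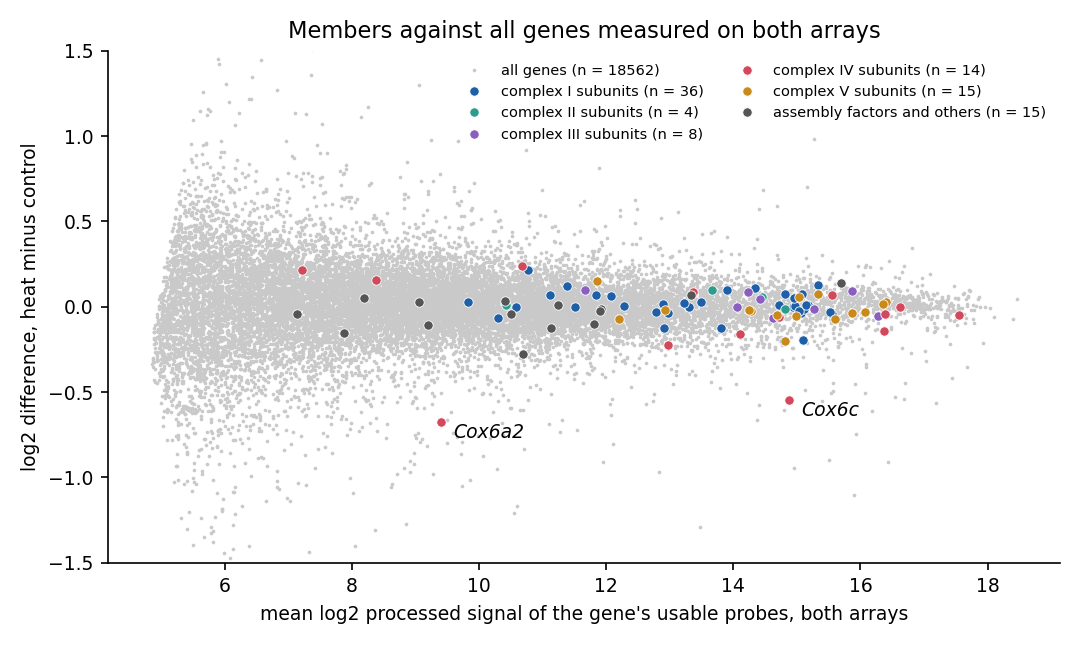
Each point is a gene measured on both arrays, with its mean log2 processed signal on the horizontal axis and its log2 difference, heat minus control, on the vertical axis. The 18562 grey points are all genes (41 lie beyond 1.5 on either side and are not drawn), and the coloured members lie near 0 except Cox6c and Cox6a2, which lie below the bulk of genes of like signal.

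By complex, the medians lay between -0.045 for complex IV and 0.032 for complex II. Complex I had a median of 0.0076 over 36 subunits, complex III one of 0.021 over 8, complex V one of -0.022 over 15, and the 11 assembly factors one of -0.042. The SD of 0.082 between spots of 1 probe is for single spots, so it gives no spread for a median over several genes. The spread of these medians between samples was not measured. Over 10 settings, which are the one used here and 9 alternatives, leaving out the one that keeps probes near background, the median of complex II stayed above 0 in all 10 and that of the assembly factors in none. The medians of the other complexes took both signs: complexes I and III were above 0 in 8 of 10 settings, and complexes IV and V in 3 of 10.

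**Figure D2:**
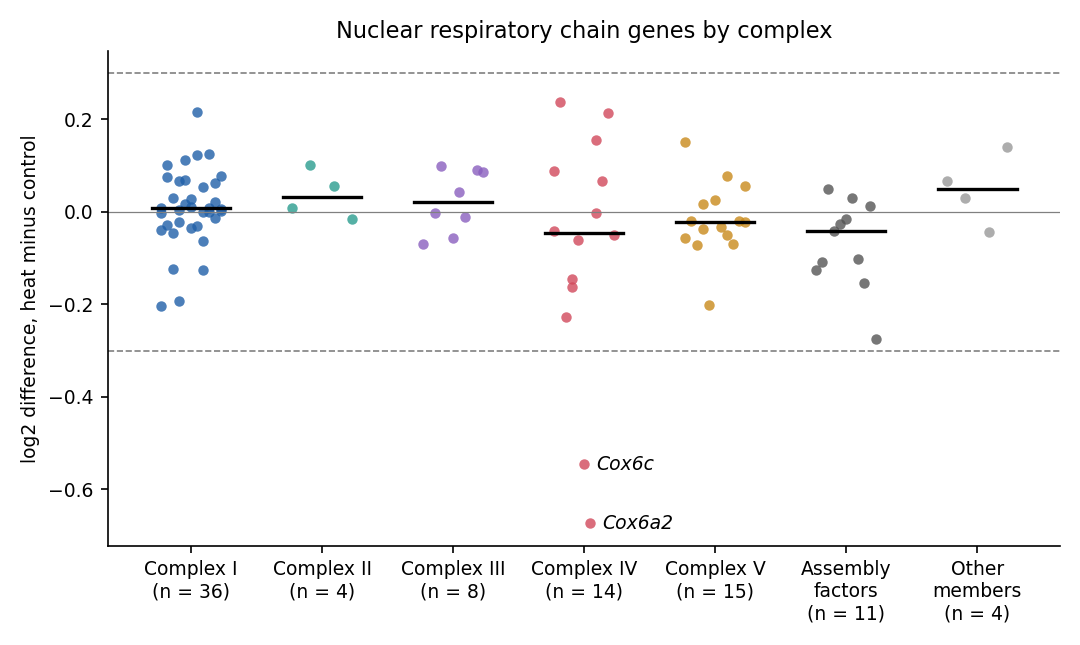
Each point is 1 member measured on both arrays, placed by its log2 difference, heat minus control, with black bars for the median of each complex and dashed lines at -0.3 and 0.3. The points of complexes I, II, III and V and of the assembly factors lie between the dashed lines, and complex IV has the widest spread, with Cox6a2 at -0.67 and Cox6c at -0.54.

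Complex I, NADH dehydrogenase, has a catalytic core that carries the flavin and the iron-sulphur clusters and many accessory subunits around it. All 36 subunits on the array were measured on both arrays, with 22 differences above 0 and 14 below, from -0.20 to 0.22. The 7 nuclear core subunits lay between -0.063 and 0.11, with a median of 0.00040. Ndufv1, which binds NADH, had signals of 9947 in the heat sample and 10239 in the control sample, a difference of -0.0032. Ndufs8, an iron-sulphur subunit, had the highest difference of the core at 0.11, with 21394 in the heat sample and 20342 in the control sample.

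The lowest values of complex I belonged to accessory subunits. Ndufb9, of the membrane arm, had signals of 26272 in the heat sample and 31052 in the control sample, a difference of -0.20. Ndufb10, also of the membrane arm, had 32224 in the heat sample and 37816 in the control sample, a difference of -0.19. Both rest on 1 bright probe. Both values are larger than the SD between spots of 1 probe, but they were picked as the lowest of 36 subunits, so this lends them no support. Ndufab1, the mitochondrial acyl carrier protein, had a difference of -0.13, the mean of -0.20 and -0.048 at its 2 probes. At the other end, Ndufb7 had 42481 in the heat sample and 40002 in the control sample, a difference of 0.13 that was 0.0036 with normexp background correction. Ndufb2 had a difference of 0.12, with all 3 of its probes above 0, from 0.063 to 0.20.

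The highest difference of complex I, 0.22 at Ndufa13, came from a dim probe. Ndufa13 (GRIM-19) encodes an accessory subunit, and its probe for the RefSeq transcript had 68728 in the heat sample and 69798 in the control sample, a difference of 0.016. Its other probe, listed under a different transcript, had 49.96 in the heat sample and 38.5 in the control sample, a difference of 0.42. With only the brightest probe of each gene, Ndufa13 was at 0.016.

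Complex II, succinate dehydrogenase, is the only complex with no subunit from the mitochondrial genome, and it also works in the tricarboxylic acid cycle. All 4 subunits lay between -0.015 and 0.10. Sdha, the flavoprotein, had a difference of 0.0080 as the mean of 4 probes from -0.097 to 0.18. Sdhb, the iron-sulphur subunit, had 22523 in the heat sample and 22241 in the control sample, a difference of 0.057 that turned to -0.078 with normexp. Of the membrane anchors, Sdhc had 13304 in the heat sample and 12741 in the control sample, a difference of 0.10, and Sdhd had 28402 in the heat sample and 29473 in the control sample, a difference of -0.015.

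Complex III, the cytochrome bc1 complex, had 4 of its 8 subunits above 0 and 4 below. The core protein Uqcrc1 had 19628 in the heat sample and 18990.4 in the control sample, a difference of 0.086. The Rieske iron-sulphur protein Uqcrfs1 had 16757 in the heat sample and 17231 in the control sample, a difference of -0.0016. Among the small subunits, the hinge protein Uqcrh stood at 0.091, Uqcr10 at -0.068, Uqcrq at -0.057 and Uqcr11 at -0.011. Uqcrb had the highest difference of the complex at 0.10, but its 3 probes did not lie on 1 side of 0. The 2 bright probes of Uqcrb, under its RefSeq transcript, gave -0.043 and -0.047, and the third, with 66.1 in the heat sample and 51.9 in the control sample, gave 0.39.

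Complex IV, cytochrome c oxidase, held the widest range, from -0.67 to 0.24, and the only 2 members past 0.3. Of its 18 nuclear subunits, with Ndufa4 and its paralogue counted here, 14 were measured on both arrays. Cox6c, a small subunit found in all tissues, had a signal of 24609 in the heat sample and 36870 in the control sample. The difference of -0.54 (0.686 times the control signal) rests on 1 bright probe and lay between -0.62 and -0.53 over the settings tried. Cox6a2, the heart and skeletal muscle isoform of subunit VIa, had 530.0 in the heat sample and 868 in the control sample, a difference of -0.67 (0.627 times the control signal). It too rests on 1 probe, and lay between -0.69 and -0.59 over the settings. Both are several times the SD of 0.082 between spots of 1 probe, which rests mostly on bright probes. However, they were picked as the lowest of all measured members, and the spread between blood samples was not measured.

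The other ubiquitous subunits of complex IV were closer to 0. With Cox6c, 8 of the 10 lay below it, and in other settings up to 5 of the 10 lay above it. Cox6b1, which faces the intermembrane space, had 7303 in the heat sample and 8777 in the control sample, a difference of -0.23. Ndufa4, first described as part of complex I, had 16516 in the heat sample and 18980.5 in the control sample, a difference of -0.16. Cox5a had 79710.2 in the heat sample and 90495 in the control sample, a difference of -0.14. Cox4i1, the largest nuclear subunit, Cox6a1, Cox7b and Cox8a had differences of -0.041, -0.050, -0.061 and -0.0023. The first 3 of these turned to 0.029, 0.0084 and 0.032 with normexp and the 75th percentile. Cox7a2 was at 0.068, and Cox7c at 0.089 as the mean of 0.26 and -0.083 at its probes. The median of the ubiquitous subunits was -0.056, and -0.050 without Cox6c, and it reached 0.0085 in another setting.

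Of the 8 tissue or hypoxia isoforms of complex IV, 4 were detected on both arrays and 4 on neither. This is near the 50.1% of all gene names that were detected on both arrays. All their ubiquitous partners were detected. Cox7a1, the heart and skeletal muscle form of subunit VIIa, had 1761 in the heat sample and 1534 in the control sample, a difference of 0.24. Cox4i2, the form of subunit IV made in lung and under low oxygen, had 346 in the heat sample and 319 in the control sample, a difference of 0.16. Cox6b2, the testis form of subunit VIb, had 159 in the heat sample and 141 in the control sample, a difference of 0.21. These 3 stood above 0 and Cox6a2 below it, so the muscle forms Cox7a1 and Cox6a2 differed in sign. Cox7a1 was at 0.10 with normexp background correction, and the 3 lay between 0.10 and 0.24 over the settings.

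The 4 isoforms that were not well above background on either array were Cox8b, the muscle form of subunit VIII, Cox8c and Cox7b2, the testis forms of subunits VIII and VIIb, and Ndufa4l2, which is made under low oxygen. Their signals were between 5.15 and 5.71 in the heat sample and between 6.50 and 7.73 in the control sample. The lowest signal flagged as well above background was 24.9 for the heat array and 31.0 for the control array. No fold is given for these 4.

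Markers of muscle and testis were detected in part, where 50.1% of all gene names were detected on both arrays. Of 9 skeletal muscle markers, 4 were well above background on both arrays, with signals of 42.0 in the heat sample and 50.1 in the control sample for Myh4, 91.9 and 92.3 for Tnnt3, 86.3 and 75.8 for Pygm, and 38.4 and 35.9 for Myl1. Ckm, Acta1, Myh1, Myh2 and Mb were not, and the summed signal of the list was 303 in the heat sample and 305 in the control sample. Of 6 heart markers, Tnni3 and Actc1 were detected on both arrays and Myh6, Tnnt2, Myl7 and Ryr2 on neither, and the list summed to 408 in the heat sample and 382 in the control sample. Of 8 testis markers, 3 were detected in the heat sample and 4 in the control sample, and the list summed to 211 in the heat sample and 225 in the control sample. The part of such cells in the isoform signals was not tested.

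**Figure D3:**
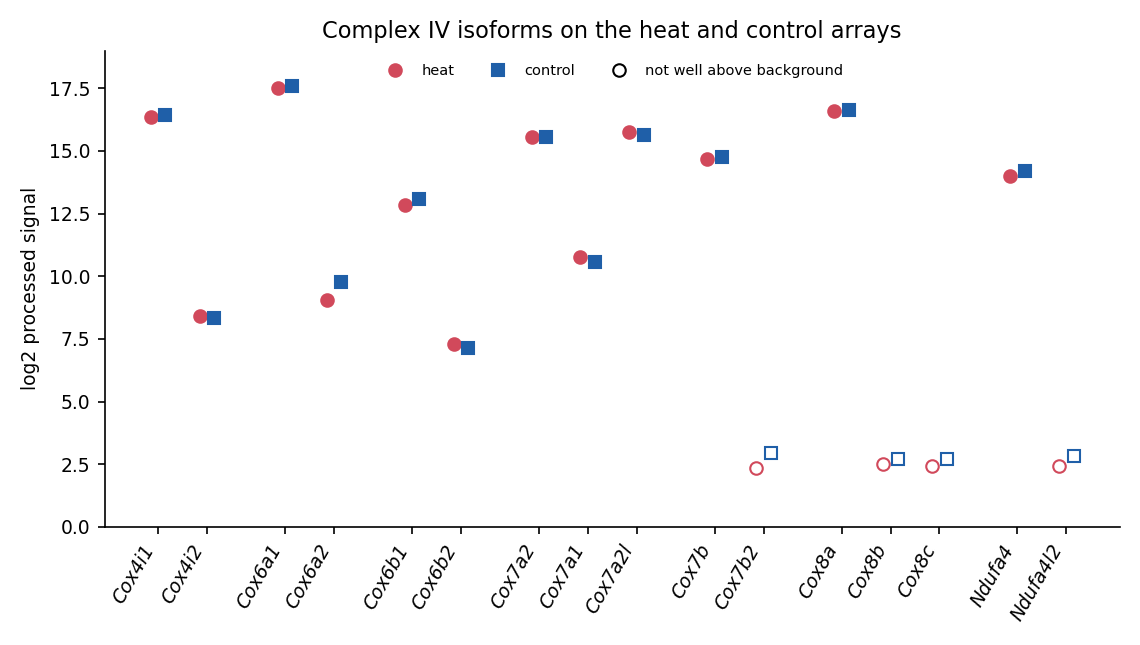
The log2 processed signal of each complex IV isoform family is drawn, with heat as red circles left of control as blue squares, and open symbols where the gene was not well above background. Cox7b2, Cox8b, Cox8c and Ndufa4l2 are open on both arrays, and Cox6a2 shows the widest gap between heat and control among the filled symbols; heights are not comparable between genes.

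Where the probes lie bears on what they measure. The probes of Cox4i1, Cox6b1 and Cox7a1 are shown because each is the only probe of its gene, and the isoform pairs depend on telling paralogues apart. None of the 3 shares a run of 25 bases with a probe of another gene. Only probes were compared with each other, so whether a probe would bind a paralogue's transcript was not tested. Coordinates are mm9, the build of the array design, at chr8:123197924-123197983 (plus strand) for Cox4i1, chr7:31409575-31411071 (minus) for Cox6b1 and chr7:30970337-30970948 (plus) for Cox7a1. The 60 bases of the Cox6b1 probe span 1497 bases of the genome and those of Cox7a1 span 612, as a probe across an exon junction would. Exon annotation of this build was not used here.
Cox4i1: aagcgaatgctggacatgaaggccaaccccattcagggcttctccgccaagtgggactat
Cox6b1: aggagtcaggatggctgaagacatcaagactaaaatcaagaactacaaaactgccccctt
Cox7a1: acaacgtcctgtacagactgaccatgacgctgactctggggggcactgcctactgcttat

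In complex V, the ATP synthase, 5 of the 15 subunits lay above 0 and 10 below, between -0.20 and 0.15. The 5 subunits of F1, the catalytic head, were all below 0 and close together, from -0.057 to -0.022, and with other settings up to 2 of the 5 lay above 0. Atp5b, the catalytic beta subunit, had 25695 in the heat sample and 27330 in the control sample, a difference of -0.050 over 3 probes. In the peripheral stalk, which holds the head still, Atp5j (coupling factor 6) had 26509.7 in the heat sample and 31317 in the control sample, a difference of -0.20 on 1 usable probe. Atp5f1 (subunit b, now Atp5pb) stood at -0.072, but its 2 bright probes gave -0.011 and 0.018 and a dim one, with 73.6 in the heat sample and 88.2 in the control sample, gave -0.22. Atp5h (subunit d) stood at -0.070, with probes from -0.21 to 0.13, and Atp5o (OSCP) at 0.056. Of the other membrane subunits, Atp5j2 (subunit f) stood at 0.15, the mean of 0.048 at its bright RefSeq probe and 0.25 at a dimmer one. Atp5k (subunit e) stood at 0.077 and Atp5l (subunit g) at 0.017.

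The proton-carrying c ring is encoded by 3 genes, Atp5g1, Atp5g2 and Atp5g3, which give the same mature protein. Their differences were -0.019, 0.027 and -0.019. The probe of Atp5g2 was printed at 10 spots, which shows the spread of this probe's spots on each array. Its spots ran from 75432 to 96814 with a median of 88291 in the heat sample, and from 73680 to 90033 with a median of 88702 in the control sample. The ranges overlapped, 7 of the 10 position-matched differences lay above 0, and they ran from -0.22 to 0.43 with an SD of 0.178. That SD is larger than the 0.082 over all 285 probes printed at several positions. It is also larger than the 0.074 over the 266 of them with a log2 signal of at least 12 on the heat array. The spots of this probe are therefore not typical, and single spots are not a like measure to gene averages.

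The 11 assembly factors that the prefixes catch put complexes I and II together. Of them, 8 lay below 0, where 52.2% of all genes were above 0. Ndufaf4 had 1478 in the heat sample and 1836 in the control sample, a difference of -0.27, the lowest among members outside complex IV. Ndufaf1 had 2119 in the heat sample and 2373 in the control sample, a difference of -0.12. Above 0 were Ndufaf6 at 0.050, Ndufaf5 at 0.031 and Ndufaf7, a methyltransferase of mitochondria, at 0.012, and each of the 3 took the other sign in some setting, down to -0.054, -0.10 and -0.026. The 4 factors of complex II were all below 0, from -0.15 for Sdhaf3, which matures the iron-sulphur subunit, to -0.016 for Sdhaf1, with a median of -0.067. With 4 genes, this count is too small to give a share. With no filter on dim probes Sdhaf3 stood at 0.16. Of the remaining members, Cox7a2l, which helps to join complexes III and IV, had 55117 in the heat sample and 51327 in the control sample, a difference of 0.14. The pseudogene Atp5c1-ps stood at 0.067, Atp5s at -0.042 and Atp5sl at 0.031.

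Of the 92 measured members, 34 had several usable probes and 58 had 1. In 18 of the 34, all probes lay on 1 side of 0, and in none did they differ by over 0.5. Neither count was taken over all genes with several probes, so neither is read as agreement between probes. The SD of probe differences within a gene was 0.114 for members, against 0.194 over all 6553 genes with several probes. The widest ranges were in Uqcrb, Ndufa13, Cox7c and Atp5h, and in Uqcrb and Ndufa13 they came from 1 dim probe. Such ranges limit how closely a single probe can be read. The values of Cox6c and Cox6a2 lie outside the range of every probe in these 34 genes. However, both were picked as the lowest of the 92 members and rest on 1 probe each, so this lends them no support.

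**Figure D4:**
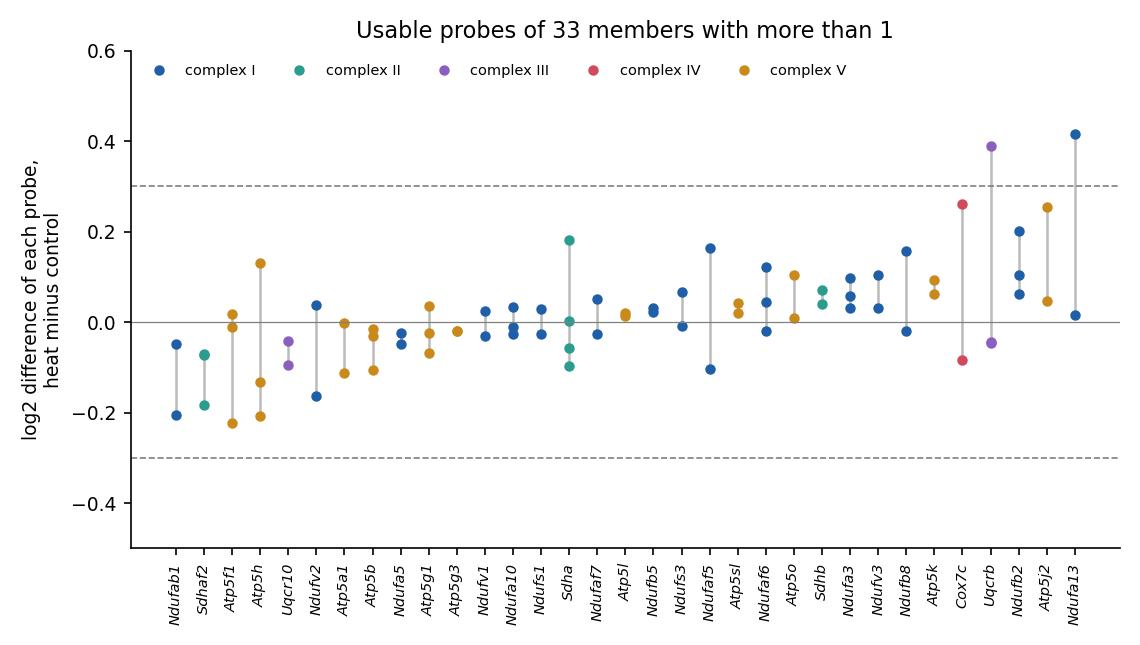
Each point is 1 usable probe, for 33 of the 34 members with more than 1, placed by its log2 difference, heat minus control, with grey lines joining the probes of a gene and dashed lines at -0.3 and 0.3. The upper probes of Ndufa13 at 0.42 and of Uqcrb at 0.39 are the only ones outside the dashed lines.

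Promoters of the members carry motifs of known regulators of respiratory genes. NRF1 and the ETS factor GABP (NRF2) are the textbook activators of these genes, and YY1 acts with them. In RefSeq sequence of GRCm38.p6, 250 bases before to 50 bases after the start, 79 of the members were found among 27018 genes. The motif letters were shortened after results of longer forms had been seen, so the shares below are not free of that choice. The letters GCGCANGCG of NRF1 were present on either strand in 24 of 79 (30.4%), against 7.04% of all genes. CCGGAAG, the ETS core with its flank, was present in 20 (25.3%), against 9.93%, and AANATGGCG of YY1 in 12 (15.2%), against 2.76%. A pair of heat shock element units, GAANNTTC, was in 4 of 79 (5.06%), against 9.04% of all genes. These were Atp5b, Atp5c1, Cox5a and Sdha, with differences of -0.050, -0.037, -0.14 and 0.0080, and a match is a run of letters, not a site. Members had a median of 20 CpG in the window, against 7 for all genes, so chance matches to motifs that hold CpG are also more frequent in them. Matches to different motifs can share bases, such as the end of an ETS match and the start of a YY1 match, so their counts are not independent of each other.

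Of the tissue or hypoxia isoforms, 4 are in that table, namely Cox6b2, Cox7a1, Cox7b2 and Cox8b. None of the 4 had a match to the NRF1, ETS or YY1 letters. Cox7b2 and Cox8b held TATAAA, as did 6 of 75 other members (8%) and 15.7% of all genes. With 4 genes, these counts are too small to give a share. Their median was 8.5 CpG. The windows of the ubiquitous Cox8a and Cox6a1, and of the pairs Cox8a with Cox8b and Cox7a2 with Cox7a1, are shown with matches in capitals. They lie at chr19:7217567-7217866 (minus strand) for Cox8a, chr7:140900397-140900696 (minus) for Cox8b, chr9:79759804-79760103 (minus) for Cox7a2, chr7:30183921-30184220 (plus) for Cox7a1 and chr5:115348909-115349208 (minus) for Cox6a1. Cox8a holds 2 ETS matches, which begin at positions -5 and 33 relative to the start. Cox6a1 holds NRF1 matches at 2 places, 1 of which reads on both strands, and 1 ETS match. Cox8b holds 1 TATAAA, which begins at position 5 and thus lies after the annotated start. The windows of Cox7a2 and Cox7a1 hold no match. Cox8a has 19 CpG and Cox8b has 2, while Cox7a2 has 20 and Cox7a1 has 7.
Cox8a: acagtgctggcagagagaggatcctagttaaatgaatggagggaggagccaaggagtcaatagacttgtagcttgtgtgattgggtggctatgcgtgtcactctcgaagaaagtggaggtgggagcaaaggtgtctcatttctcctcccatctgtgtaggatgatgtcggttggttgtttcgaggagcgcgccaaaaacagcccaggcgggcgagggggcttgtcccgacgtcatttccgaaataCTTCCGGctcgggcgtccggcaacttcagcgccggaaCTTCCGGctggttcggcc
Cox8b: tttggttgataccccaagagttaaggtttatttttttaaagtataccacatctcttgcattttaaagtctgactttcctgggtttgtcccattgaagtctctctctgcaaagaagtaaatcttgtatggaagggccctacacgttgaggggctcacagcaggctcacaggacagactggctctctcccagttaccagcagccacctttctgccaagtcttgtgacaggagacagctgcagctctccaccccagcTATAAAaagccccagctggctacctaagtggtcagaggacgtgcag
Cox7a2: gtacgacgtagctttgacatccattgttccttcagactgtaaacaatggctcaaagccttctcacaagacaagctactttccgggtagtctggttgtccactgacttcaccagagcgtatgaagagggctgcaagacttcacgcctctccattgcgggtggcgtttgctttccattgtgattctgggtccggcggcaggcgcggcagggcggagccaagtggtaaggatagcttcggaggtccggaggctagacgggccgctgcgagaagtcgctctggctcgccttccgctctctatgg
Cox7a1: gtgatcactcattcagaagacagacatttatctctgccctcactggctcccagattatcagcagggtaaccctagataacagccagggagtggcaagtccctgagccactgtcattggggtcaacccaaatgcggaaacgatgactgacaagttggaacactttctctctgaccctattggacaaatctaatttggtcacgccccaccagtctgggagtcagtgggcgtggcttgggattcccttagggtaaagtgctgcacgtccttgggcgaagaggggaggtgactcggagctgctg
Cox6a1: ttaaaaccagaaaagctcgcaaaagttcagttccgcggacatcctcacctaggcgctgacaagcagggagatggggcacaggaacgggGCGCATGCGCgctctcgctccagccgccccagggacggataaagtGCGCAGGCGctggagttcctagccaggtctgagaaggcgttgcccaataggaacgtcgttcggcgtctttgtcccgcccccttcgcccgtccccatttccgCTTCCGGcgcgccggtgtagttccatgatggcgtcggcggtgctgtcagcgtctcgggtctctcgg

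The differences of the regulators themselves lay between -0.22 and 0.12. Of 15 listed regulators of respiratory genes, 14 were measured, with 5 above 0, 9 below and none past 0.3 in either direction. Over all genes 6.47% were higher and 6.48% lower by at least 0.3. With 14 genes, the count cannot be set apart from these shares. Ppargc1b, which encodes the coactivator PGC-1beta, had 680.2 in the heat sample and 813 in the control sample, a difference of -0.22. Ppargc1a, which encodes its relative PGC-1alpha, was detected on neither array. Gabpb2, a subunit of GABP, stood at 0.12 and Polrmt, the RNA polymerase of mitochondria, at 0.11.

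All 11 subunits on the array that are encoded by the mitochondrial genome were measured, with 6 above 0, 5 below and a median of 0.0021. ND6 of complex I, the only one of them encoded on the light strand, had 341 in the heat sample and 473 in the control sample, a difference of -0.43, and was the only one past 0.3. COX2 of complex IV had 147248 in the heat sample and 132268 in the control sample, a difference of 0.19. ND1 of complex I stood at -0.12.

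Assembly factors of complex IV, which insert its copper and heme and join its subunits, lay mostly below 0. Of 23 measured, 6 were above 0 and 17 below, where 52.2% of all genes were above 0. Their median of -0.053 was below 0 in all of the same 10 settings. Pet117 had 98.8 in the heat sample and 155 in the control sample, a difference of -0.61, and was the only one past 0.3. It rests on 1 dim probe and was as near to 0 as -0.36 in another setting. Sco2, a copper chaperone, stood at -0.23 (as near as -0.11) and Surf1 at 0.20 (as near as 0.12). Further factors of complex I (7 measured) and complex III (5 measured) had medians of -0.064 and 0.011, and the 3 factors of complex V one of -0.11. None of these was past 0.3, where 6.47% of all genes were higher and 6.48% lower by at least that much. Among cytochrome c and subunits whose names lack the prefixes, 5 of 6 were measured, 4 of them below 0. With 5 genes, this count is too small to give a share. Cycs, somatic cytochrome c, had 20134 in the heat sample and 22448 in the control sample, a difference of -0.12, and Cyct, its testis form, was detected on neither array.

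**Figure D5:**
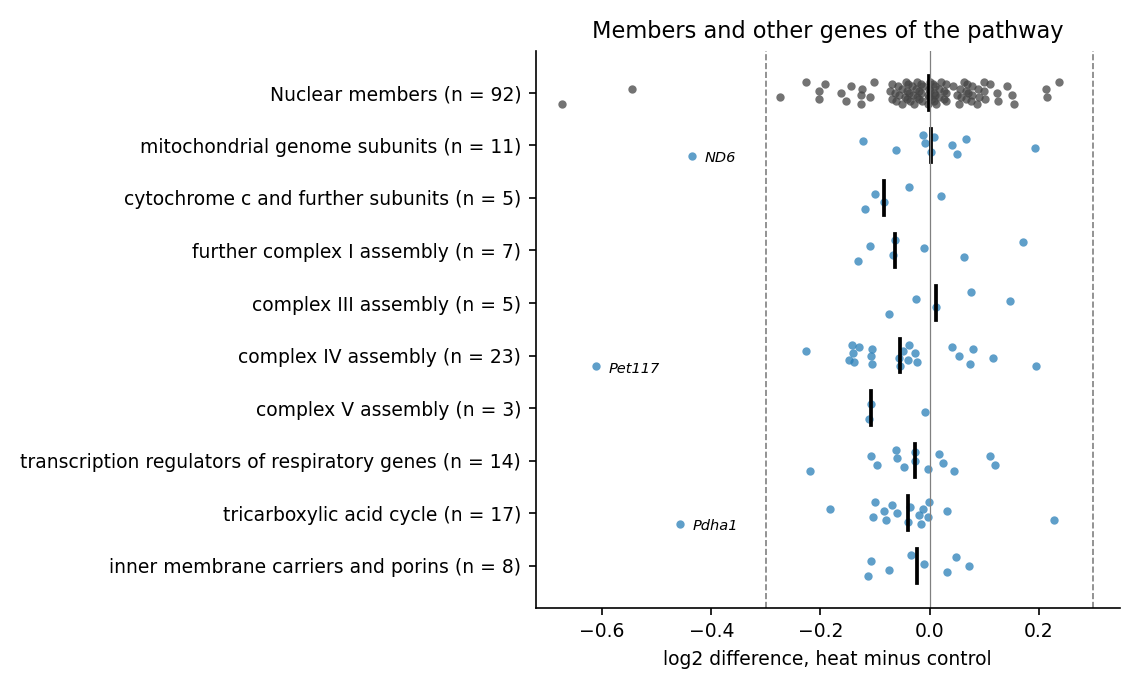
Each point is 1 gene measured on both arrays, placed by its log2 difference, heat minus control, with the members in the top row and the other lists of the pathway below, black bars for medians and dashed lines at -0.3 and 0.3. Medians lie within 0.11 of 0 in every row, and ND6, Pet117 and Pdha1 are the only genes of the other lists past the dashed lines.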

How the data were processed

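RNA from 2 mouse blood samples, 1 heat and 1 control, was hybridised to 1-colour Agilent arrays. Per the file headers, the deposited scanner files hold linear intensity values (processed, mean and background signals of the green channel), from protocol GE1_107_Sep09 of Agilent Feature Extraction 10.7.1.1, with probes placed on mm9. The submitters' processing notes name version 9.1. The authors' deposited value table holds log2 values, which matched quantile-normalized log2 processed signals of the members within 0.0062, in the direction of the scanner files. Its median is 5.27 in both columns. The labels' protocols mention 3 replicates, but 1 array per group was analysed, and the number of arrays limits the precision.

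From the scanner files, log2 processed signals minus each array's 75th percentile were computed without control spots and without outliers (168 for heat, 149 for control). No spot was saturated. Spots of 1 probe were averaged, and a probe was usable when over 0.5 of its spots were flagged well above background on both arrays. Usable probes that share a gene name in the files were averaged to give the gene's difference. All 96 names matched a symbol of the RefSeq table of GRCm38.p6. Differences of 1 (2-fold) and 0.3 on the log2 scale were counted, with no test.

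The members and lists were chosen with earlier results of these data known. The rule for named genes takes the complex IV and c ring isoforms with their partners, the 3 highest and 3 lowest members of each complex and of the assembly factors, members past 0.3, members detected on 1 array only or neither, members whose probes differ by over 0.5, and the 3 largest differences of each other list. This last part was not followed throughout. No gene of the further assembly lists of complexes I, III and V was named, and fewer than 3 measured genes of the cytochrome c and carrier lists were. The core subunits, F1 subunits, Uqcrfs1, Cox5a, Cox7c, Atp5l, Sdhaf1, Atp5s, Atp5sl, Atp5c1-ps and undetected list genes were named after their values were seen. The plot of probes leaves out 1 member. The promoter motifs were shortened after results of longer forms had been seen.

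The alternatives tried were cyclic loess, quantile normalization, scaling to the median of detected probes, mean minus background signals, and normexp with an offset of 50 followed by either quantiles or the 75th percentile. Further ones were the authors' table, keeping all dim probes, keeping only the brighter 50%, and taking each gene's brightest probe. Steps were tested on simulated data. Software was Python 3.11.15 with pandas 2.3.3, numpy 2.4.6 and matplotlib 3.10.9, and limma 3.58.1 in R 4.3.3.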

Additional observations from a re-analysis of the deposited data

How the results depend on the processing

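No paired analysis was possible because each group has 1 array. Under all 10 alternatives, 0 members reached a difference of 0.3, 0 members were 2-fold apart, and Cox6c and Cox6a2 were at or below -0.3. With no filter on dim probes the members at or below -0.3 numbered 4, with Cox7b2 and Ndufa4l2 added, neither of them well above background on either array, and the median of all genes was -0.10. The members' median lay between -0.012 and 0.0075 over all settings, and that of complex IV between -0.10 and 0.029. Over all genes, the 2-fold counts of 39 higher and 84 lower were 11 and 27 with normexp and quantile normalization, 12 and 24 with normexp and the 75th percentile, 3 and 14 in the brighter 50% of probes, and 727 and 1008 with no filter; the first 2 corrections add an offset, the third tests fewer genes, and the fourth adds probes near background. Normexp with quantile normalization also lowered the share of all genes past 0.3 to 2.07% higher and 3.23% lower. Several small differences of named genes moved: Ndufb7 to 0.0036 and Sdhb to -0.078 with normexp and the 75th percentile, Sdhaf3 to 0.16 with no filter, Atp5h to 0.13 with its brightest probe, Atp5j2 to 0.048 with its brightest probe, and the value nearest 0 over the settings was 0.10 for Cox7a1, -0.36 for Pet117, -0.11 for Sco2, 0.12 for Surf1 and 0.11 for Idh3g. Ndufaf6 reached -0.054, Ndufaf5 ran from -0.10 to 0.20, and Ndufaf7 reached -0.026. Single arrays limit every value: no spread between samples was measured, and signals near background differ in level between the arrays.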

Other observations

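The tricarboxylic acid cycle, which supplies NADH and succinate to complexes I and II, had all 17 listed genes measured, 2 of them above 0 and 15 below, where 52.2% of all genes were above 0. In other settings up to 5 of the 17 lay above 0. The median was -0.039, and it was below 0 in the 10 settings that leave out probes near background. Pdha1, a subunit of pyruvate dehydrogenase, was the only one past 0.3, at -0.46. It had 2 usable probes, and with the brightest probe of each gene it stood at -0.038. Of the subunits of isocitrate dehydrogenase, Idh3g had 2975 in the heat sample and 2607 in the control sample, a difference of 0.23. Its bright probes gave 0.16 and 0.059 and a dim one 0.46, and over the settings it ran from 0.11 to 0.23. Idh3a had 8535 in the heat sample and 9951 in the control sample, a difference of -0.18.

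Among carriers and porins of mitochondria, 8 of 10 were measured, 3 above 0 and 5 below. None was past 0.3, where 6.47% of all genes were higher and 6.48% lower by at least that much. Vdac1 and Vdac3, porins of the outer membrane, stood at -0.11 each. Ucp1, the uncoupling protein of brown fat, and Slc25a31, the testis form of the ADP/ATP carrier, were not well above background on either array. Of the 150 member probes, 3 share a run of 25 bases with a probe of another gene, 1 each of Ndufb11, Cox6a1 and Atp5h. In addition, 4 are listed under records of more than 1 gene, among them the pairs Cox7c with Gm12338 and Ndufb4 with Ndufb4b. The signals of these probes may hold both transcripts.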
